A study of Homo sapiens with 17 samples.

Results

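The RNA of 10 genes of neurite growth and the neuronal cytoskeleton was followed in IMR32 neuroblastoma cells as the intracellular domain of NOTCH3 (NOTCH3IC) was induced. The genes were listed by name: GAP43, DCX, STMN2, STMN3, STMN4, MAP2, MAPT, TUBB3, NEFL and NEFM. All probe sets annotated to one of them were taken, which gave 26 of 54675 probe sets and 10 of 19775 genes. The genes were chosen with earlier results of these data known. Of the 26 probe sets, 23 were above the intensity filter described under processing. The brightest probe set of each of the 10 genes was among them and stands for the gene unless another is named.

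IMR32 is a human neuroblastoma line with amplified MYCN, cultured here in medium with fetal calf serum. Both clones, c6 and c8, carry the inducible NOTCH3IC construct, and doxycycline in the medium turned it on. Clone c6 was sampled at times 0, 4, 8, 12, 24, 48, 72, 96 and 120 and clone c8 at times 0 to 96, with 1 array per clone and time, 17 arrays in all; the labels give no unit of time. Time 0 is called the start, times 4, 8 and 12 the early phase and times 48, 72 and 96 the late phase. No array came from a culture kept without doxycycline after time 0, so NOTCH3IC, doxycycline and time in culture cannot be told apart. The labels do not say that the time points were separate cultures, and p-values measure only the spread between these arrays. NOTCH3 itself was higher late than at the start (log2 change 1.88 ± 0.19 SE, limma adjusted p = 1.03e-05). Of 8 tested sympathetic neuroblast genes, which mark the lineage of the line, 1 (GATA2) rose and 2 (PHOX2A and DBH) fell late against start. The signal of TH, the first enzyme of catecholamine synthesis, lay between 0.4 and 8.5 on all arrays.

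Neurites are thin processes that neurons extend with a growth cone at the tip. Their shafts rest on microtubules, which tubulins build, microtubule-associated proteins bind and bundle, and stathmins take apart, and on neurofilaments, the intermediate filaments that set axon calibre. Neuroblastoma cells come from the sympathetic lineage and express many of these genes. Notch signalling acts through the DNA-binding protein RBPJ and through repressors of the HES and HEY families, and is known for holding back neuronal differentiation in many tissues.

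The RefSeq promoter table (GRCh38.p14) held windows for 5 of the 10 genes: GAP43, DCX, STMN3, MAP2 and TUBB3. The 250 bases before the transcription start of GAP43 and of DCX are shown because these genes had the largest late rises of the list on the log2(signal + 16) scale; with 1 added in place of 16 the rise of STMN2, at 2.59, was above both. The capitals mark matches on either strand to the E-box CANNTG and to the N-box CACNAG, sequences bound by basic helix-loop-helix factors. The GAP43 window lies at chr3:115623260-115623509 on the plus strand and the most upstream of the 3 DCX windows at chrX:111412193-111412442 on the minus strand. Both precede the transcript.

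GAP43: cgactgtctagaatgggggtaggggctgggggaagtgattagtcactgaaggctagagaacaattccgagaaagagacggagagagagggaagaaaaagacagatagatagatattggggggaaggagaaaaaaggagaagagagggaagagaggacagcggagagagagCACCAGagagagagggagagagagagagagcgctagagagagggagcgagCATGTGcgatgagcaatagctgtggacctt
DCX: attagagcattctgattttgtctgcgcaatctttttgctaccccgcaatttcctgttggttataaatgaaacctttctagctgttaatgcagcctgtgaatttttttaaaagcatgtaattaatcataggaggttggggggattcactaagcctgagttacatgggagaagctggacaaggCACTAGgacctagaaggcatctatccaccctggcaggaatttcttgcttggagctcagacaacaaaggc

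The GAP43 window held 1 E-box and 1 N-box, and the DCX window 1 N-box and no E-box. The RBPJ core TGGGAA was found in neither window on either strand. Of all 35116 windows of this length in the table, 20.8% held TGGGAA, 61.8% the E-box and 32% the N-box. A match describes letters only, and its absence says nothing of sites outside the window. Of the 10 windows of these genes, 1 held TGGGAA, the most upstream window of MAP2, a gene that was not called over time.

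Late against start, 4 of the 10 genes rose and none fell: GAP43, DCX, STMN2 and MAPT. Among all genes tested 6.94% were called in this comparison (949 of 13675; 712 higher, 237 lower), and the median log2 change was 0.34 over the 10 genes and 0.02 over all genes. The same 4 genes varied over all time points, where 6.61% of all genes were called. On all 6 late arrays each of the 4 lay above the time 0 of its own clone. The 6 others (STMN3, STMN4, MAP2, TUBB3, NEFL and NEFM) had log2 changes between -0.13 and 0.34 and did not pass. Within 1 clone a single start array is left and the times of a phase stand as replicates, so only changes are given. Late minus start in clones c6 and c8 they were 1.30 and 1.75 for GAP43, 1.60 and 1.39 for DCX and 1.16 and 1.31 for STMN2 (log2). MAPT had 1.32 and 0.84, and NEFL -0.15 and 0.84. In bulk RNA a change in the share of cells that express a gene and a change of its level per cell cannot be told apart.

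**Figure D1:**
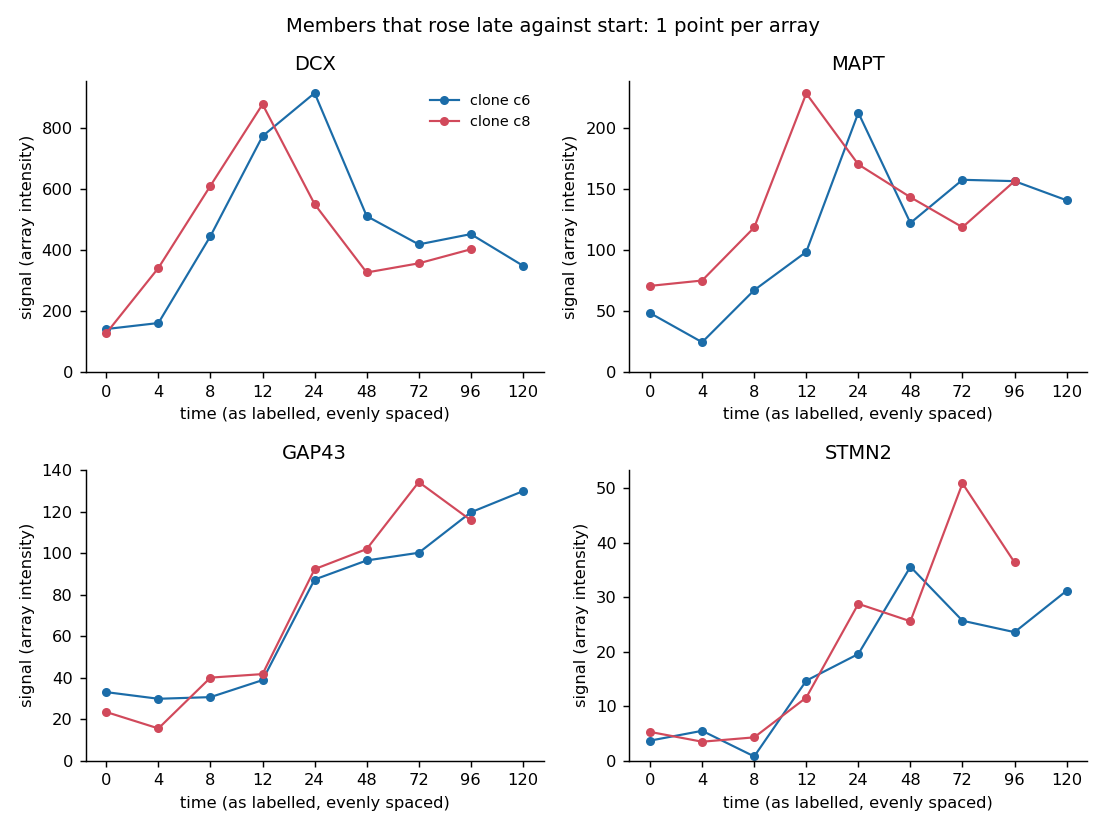
Signal (array intensity, linear axis from 0) of the brightest probe set of DCX, MAPT, GAP43 and STMN2 against time as labelled, evenly spaced, 1 point per array and a line per clone. DCX and MAPT peaked at time 24 in clone c6 and at time 12 in clone c8, while GAP43 and STMN2 stayed near their start until time 8 and were high from time 48 on.

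GAP43 (204471_at), the growth-associated protein of growth cone membranes, rose late. In clone c6 its signal was 33.1 at time 0, then 29.9, 30.7 and 38.9 at times 4, 8 and 12, 87.4 at time 24, and 96.6, 100.3, 119.8 and 130 at times 48 to 120. In clone c8 it was 23.5 at time 0, then 15.6, 40.1, 41.8, 92.4, 102.1, 134.4 and 116 up to time 96. The early arrays lay around the start, time 24 was the first time above 2-fold in both clones, and in both clones the lowest late array was above the highest early one. The late mean was 106 ± 12.5 (SD, n = 3 arrays) in clone c6 and 118 ± 16.2 (SD, n = 3 arrays) in clone c8. Late against start GAP43 was 2.88-fold higher (log2 1.53 ± 0.17 SE, limma adjusted p = 2.80e-05), and late against early 2.65-fold higher (log2 1.41 ± 0.14, limma adjusted p = 1.32e-05).

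Early against start the change of GAP43 was 0.12 ± 0.17 (limma adjusted p = 0.817). Its dimmer probe sets ran in the same direction. The signal of the second (216963_s_at) lay between 8.6 and 23.1 on early arrays and between 25.5 and 64.7 on late arrays. That of the third (216967_at) went from 4.5 and 4.6 at time 0 to between 9.8 and 18.3 late. Among all probe sets neither passed late against start (log2 0.92 ± 0.23, limma adjusted p = 0.0631, and 0.55 ± 0.17, limma adjusted p = 0.159), and the second passed late against early. Because 16 was added before the logarithm, the fold of a dim gene is understated, and with 64 added the late rise of GAP43 was 0.93.

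STMN2 (203001_s_at), the neuronal stathmin of growth cones also known as SCG10, followed the same order from a lower signal. In clone c6 it was 3.7 at time 0, 5.5, 0.8 and 14.7 at times 4, 8 and 12, 19.6 at time 24, and 35.6, 25.7, 23.6 and 31.2 at times 48 to 120. Clone c8 gave 5.3 at time 0, then 3.5, 4.3, 11.6, 28.8, 25.6, 50.9 and 36.4. Every late array lay above every early array of its clone. STMN2 rose by 1.23 ± 0.21 late against start (log2, limma adjusted p = 0.00119) and by 1.11 ± 0.17 late against early (limma adjusted p = 0.000708), and was at 0.12 ± 0.21 early against start. Its other probe set (203000_at) was between 0.5 and 10.8 up to time 12 and between 21.5 and 36.1 late, and passed both late comparisons. The signal at the start was below the added 16, so the size depends on it: late against start the change was 2.59 with 1 added and 0.49 with 64 added. Detection calls were not used here.

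The other stathmins of the list were not called over time. STMN3 (222557_at), a stathmin relative of neuronal membranes, lay between 578 and 740.8 in clone c6 and between 480.3 and 764.5 in clone c8, and changed by 0.08 ± 0.15 from start to late (limma adjusted p = 0.849). Its late arrays were all below time 0 in clone c6 (740.8 at time 0) and all above it in clone c8 (480.3 at time 0). STMN4 (221236_s_at) was dim, between 11.6 and 27.4 in clone c6 and between 11.1 and 25.3 in clone c8, at 0.34 ± 0.17 (limma adjusted p = 0.325). Its second probe set (236812_at) was 11.1 at time 0 and between 3.1 and 4.4 late in clone c6, and between 1.4 and 6.7 in clone c8. STMN1, the widely expressed founder of the family and one of the neighbouring genes described further on, fell by 0.39 ± 0.11 late against start (limma adjusted p = 0.0363).

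DCX (204850_s_at), doublecortin, which binds and stabilises microtubules in migrating and immature neurons, was the only one of the 10 genes to pass early against start. Its signal in clone c6 was 141 at time 0, 160.7 at time 4, 445.5 at time 8, 772.7 at time 12 and 913.9 at time 24. It was then 510.9, 418.2, 451.9 and 348.5 at times 48 to 120. In clone c8 it was 127.5 at time 0, 341.1, 610.4 and 877.1 at times 4, 8 and 12, and then 550, 326.2, 356.2 and 402.2. The highest array was 6.48 times the start in clone c6 and 6.88 times in clone c8, and the early and late arrays overlapped. DCX was 3.22-fold higher early against start (log2 1.69 ± 0.24, limma adjusted p = 0.00184), a comparison in which 2.01% of all genes were called and 1 of these 10.

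Late against start DCX was still 2.82-fold higher (log2 1.49 ± 0.24, limma adjusted p = 0.000853), at a late mean of 460 ± 46.9 (SD, n = 3 arrays) in clone c6 and 362 ± 38.3 (SD, n = 3 arrays) in clone c8. Its second probe set (204851_s_at) rose too but peaked at time 12 in both clones, from 67.1 and 81 at time 0 to 403.7 and 485.6. In clone c6 it was already down to 233.8 at time 24, where the brighter one was highest. It lay between 166 and 227.9 late, and the pair correlated at r = 0.92 over the 17 arrays. The early call rests on both time-0 arrays: without that of clone c6 the change was 1.75 (limma adjusted p = 0.06), without that of clone c8 1.63 (limma adjusted p = 0.073), and with phase means 1.69 (limma adjusted p = 0.0697).

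MAPT (203929_s_at), which encodes tau, the axonal microtubule-associated protein, also had a peak before the late phase. Its signal in clone c6 was 48.4 at time 0, 24.5, 67.2 and 98.6 at times 4, 8 and 12, 212.7 at time 24, and 122.3, 157.7, 156.6 and 140.9 at times 48 to 120. Clone c8 had 70.7 at time 0, 75.1 and 118.6 at times 4 and 8, 228.5 at time 12, and then 170.3, 143.4, 118.8 and 156.6. The highest arrays were those at which the brighter DCX probe set peaked, time 24 in clone c6 and time 12 in clone c8. MAPT rose by 1.08 ± 0.26 late against start (log2, limma adjusted p = 0.0167) and was at 0.46 ± 0.26 early against start (limma adjusted p = 0.459). The late call was lost without time 0 of clone c6 (1.04, limma adjusted p = 0.218) or of clone c8 (1.11, limma adjusted p = 0.159), with phase means (limma adjusted p = 0.116) and with no replicate block (limma adjusted p = 0.0884).

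MAPT had 6 probe sets, the most of the list, and 5 of them peaked at time 24 in clone c6 and at time 12 in clone c8. The probe set 206401_s_at went from 29.5 to 229.4 in clone c6 and from 33.9 to 246.2 in clone c8, and 203928_x_at from 46.1 to 240.3 and from 46.3 to 240.1. Both passed late against start among all probe sets (log2 1.47 ± 0.32, limma adjusted p = 0.0263, and 1.19 ± 0.24, limma adjusted p = 0.0188). The 5 correlated with each other between r = 0.80 and 0.97 over the 17 arrays after each clone's mean was removed. The probe set 233117_at stayed between 1.9 and 15 and correlated with them between 0.20 and 0.33. Probe sets named _x_at may also bind transcripts of related genes. The transcript forms that each one reads are not given in the sources used here.

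**Figure D2:**
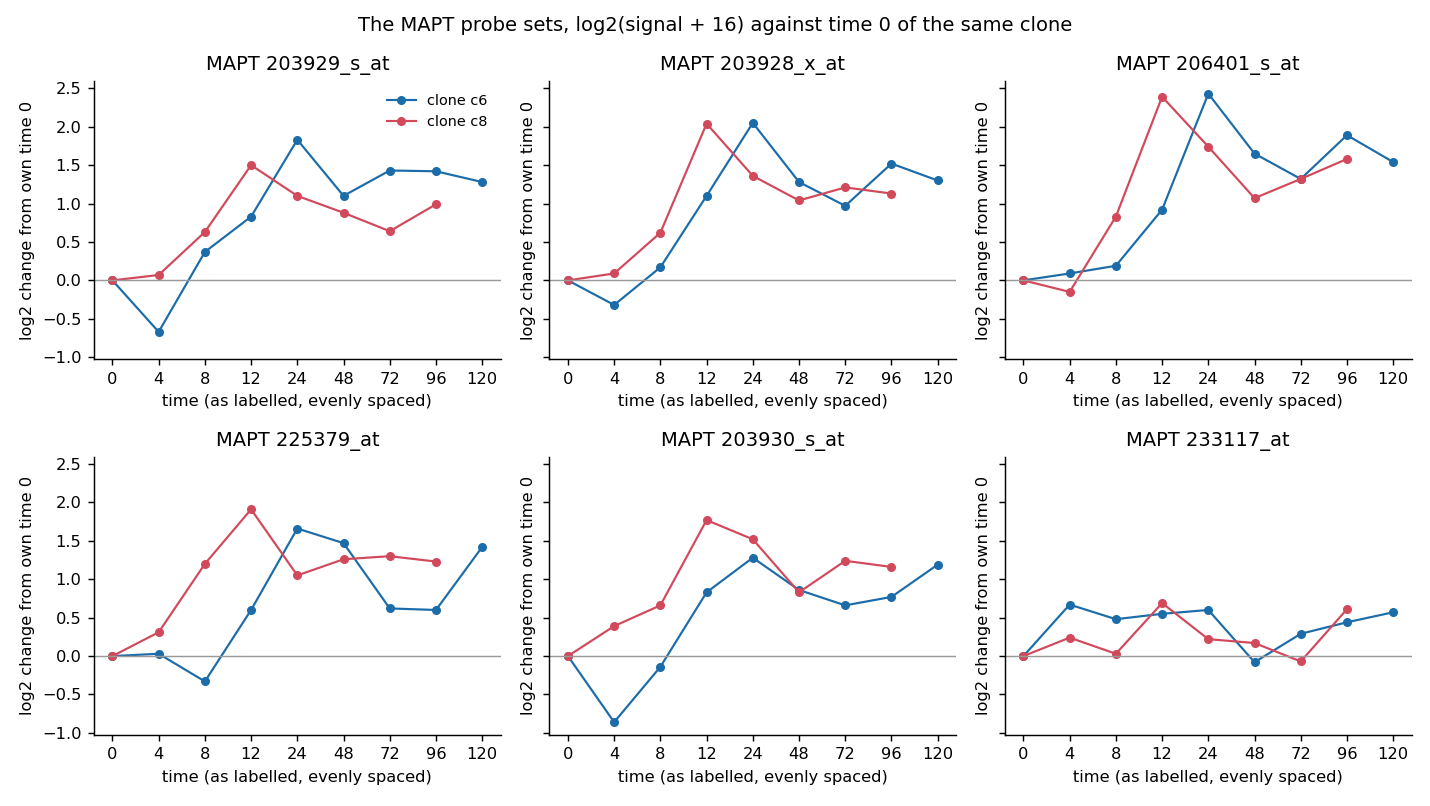
Change of each of the 6 MAPT probe sets from time 0 of the same clone, as log2(signal + 16), against time as labelled, with 1 point per array and a line per clone. The 5 brighter probe sets have their maximum at time 24 in clone c6 and at time 12 in clone c8. The dim 233117_at has its maximum at time 4 in clone c6 and at time 12 in clone c8.

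Since these peaks fall at time 24 between the phases in clone c6 and at time 12, the last early time, in clone c8, both times were also set against the start and against the late phase, contrasts chosen after seeing the data. Against the start, where 10.7% of all genes were called, 4 of the 10 genes were higher: DCX 5.2-fold (log2 2.38 ± 0.26, limma adjusted p = 3.74e-05), MAPT 2.49-fold (1.31 ± 0.27, limma adjusted p = 0.0064), GAP43 1.75-fold (0.81 ± 0.18, limma adjusted p = 0.0095) and STMN2 1.66-fold (0.74 ± 0.22, limma adjusted p = 0.0448). Over all probe sets neither STMN2 probe set passed here: 203001_s_at had a limma adjusted p = 0.113, and 203000_at was at 0.39 ± 0.25 (limma adjusted p = 0.546). The STMN2 call was lost in 17 of 25 alternatives, that of GAP43 without time 0 of clone c8 (0.63, limma adjusted p = 0.176), and that of MAPT without time 0 of clone c6 (limma adjusted p = 0.1) or clone c8 (limma adjusted p = 0.069). From times 12 and 24 to the late phase, where 1.51% of all genes were called, DCX fell by 0.88 ± 0.19 (limma adjusted p = 0.0311) and GAP43 rose by 0.72 ± 0.13 (limma adjusted p = 0.013), while MAPT was at -0.24 ± 0.20 (limma adjusted p = 0.67) and STMN2 at 0.50 ± 0.16 (limma adjusted p = 0.178). The second STMN2 probe set (203000_at) rose by 1.03 (limma adjusted p = 0.0367 over all probe sets). Over all probe sets the brightest of DCX (limma adjusted p = 0.106) and of GAP43 (limma adjusted p = 0.0505) did not pass. The second DCX probe set did, at -0.82 (limma adjusted p = 0.0197). Without time 24 of clone c6 neither gene passed in the gene test (DCX -0.69, limma adjusted p = 0.276, and GAP43 0.70, limma adjusted p = 0.0954). The GAP43 call was also lost with probe sets averaged (0.44, limma adjusted p = 0.0565), and the DCX call was lost in 10 of 26 alternatives, including without times 72 or 96 of clone c6 or without times 12, 48, 72 or 96 of clone c8.

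At the arrays where MAPT and the brighter DCX probe set peaked, the summed signal of 8 cell division markers was at its lowest in each clone. In clone c6 the sum was 13030, 13230, 14230 and 12430 at times 0 to 12, 6311 at time 24 and between 9890 and 11180 afterwards. In clone c8 it was 12240, 13590 and 13110 at times 0 to 8, 7708 at time 12, 9897 at time 24 and between 11020 and 12270 afterwards. MAPT correlated with the mean log2 of these markers at r = -0.75, DCX at -0.54 and TUBB3 at 0.78, as a description over 17 arrays that share 2 clones and neighbouring times. The second DCX probe set peaked in clone c6 at time 12, where the sum was 12430. The part of cell division in these courses was not tested. Late against start, 0 of the 8 division markers passed in limma (1 at an unadjusted p under 0.05), with changes between -0.35 and 0.01. In the contrasts added after seeing the data, 2 of the 8 were lower at times 12 and 24 against start, beside 541 of all 13675 genes. Late against times 12 and 24, 2 of the 8 were higher, beside 147 of all genes.

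TUBB3 (213476_x_at), the neuronal beta-tubulin isotype, was bright on all arrays and did not pass in any comparison of times. Its signal in clone c6 was 2266.8, 2528.5, 2793.4 and 2654.7 at times 0 to 12, 1737.8 at time 24 and between 1960.6 and 2332.7 afterwards. In clone c8 it was 1838.6, 1883.5 and 2160.3 at times 0 to 8, 1755.5 at time 12, 1782.2 at time 24 and between 1885.2 and 2328.8 afterwards. On this probe set the lowest array of each clone was the one with the lowest division sum. Late against start the change was 0.05 ± 0.12 (limma adjusted p = 0.874), and -0.02 with median centring. Its second probe set (202154_x_at) was also lowest at time 24 in clone c6, at 991.5, but in clone c8 it was lowest at time 96, at 957.3, beside 1069.5 at time 12. It ran with the first at r = 0.84; both are _x_at probe sets.

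MAP2 (225540_at), the microtubule-associated protein of dendrites, differed between the clones and was not called over time. Its signal was between 344.1 and 499.7 in clone c6 and between 132.3 and 245.2 in clone c8. No array of one clone overlapped with the other. The mean over the 8 shared times was 420 ± 43.7 (SD, n = 8 arrays) in clone c6 and 193 ± 37 (SD, n = 8 arrays) in clone c8. The late change was -0.13 ± 0.16 (limma adjusted p = 0.722), with -0.35 in clone c6 and 0.09 in clone c8. All 3 late arrays of clone c6 lay below its time 0.

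**Figure D3:**
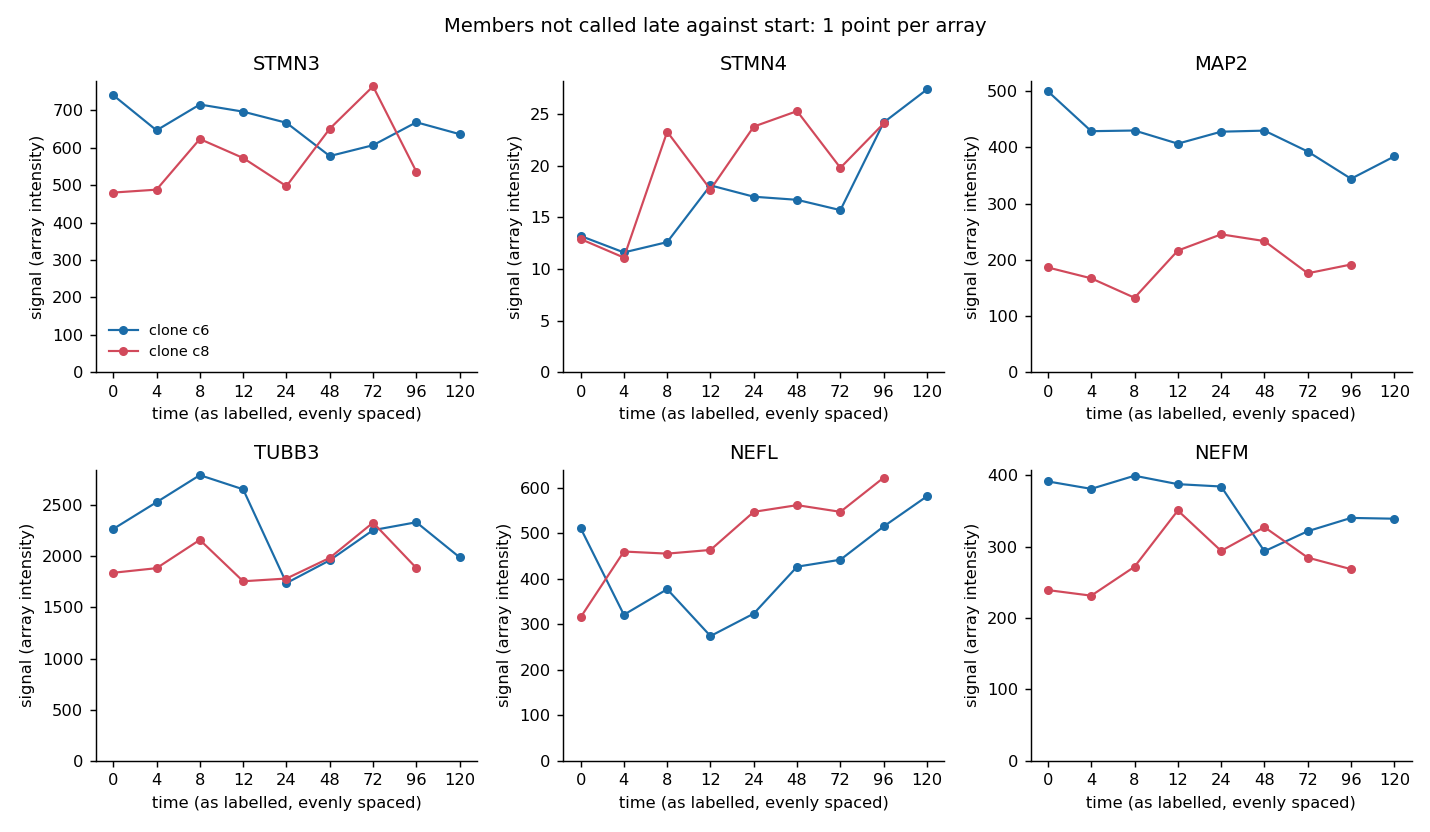
Signal (array intensity, linear axis from 0) of STMN3, STMN4, MAP2, TUBB3, NEFL and NEFM against time as labelled, evenly spaced, with 1 point per array and a line per clone. The clones lie apart for MAP2 at all 8 shared times, TUBB3 has its lowest value at time 24 in clone c6 and at time 12 in clone c8, and NEFL is highest at the last time of each clone.

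Of the neurofilament genes, NEFL (221916_at), the light chain on which the others assemble, was higher late than early, and NEFM (205113_at), the medium chain, was not. NEFL in clone c6 was 511.3 at time 0, 320.8, 377 and 274 at times 4, 8 and 12, and was 323.4, 426.4, 441.7, 514.8 and 581.1 from time 24 to time 120. Clone c8 started at 315.1, had 459.7, 455.1 and 463.2 in the early phase, and reached 546.9, 561.6, 546.9 and 622 from time 24 to time 96. Within each clone every late array was above every early array, but on this probe set the clones started on opposite sides of their early values. On 221805_at both started above their early arrays, at 278.9 in clone c6 (early maximum 257) and 274.2 in clone c8 (248.8). Late against early, where 5.18% of all genes were called, GAP43, STMN2 and NEFL were the 3 of the 10 that passed, and none was lower.

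The late against early change of NEFL was 0.41 ± 0.09 (log2, 1.32-fold, limma adjusted p = 0.01), and its second probe set (221805_at) gave 0.53 ± 0.09 (limma adjusted p = 0.00641). The third (221801_x_at) did not pass (0.32 ± 0.21, limma adjusted p = 0.666), and its early and late arrays overlapped in both clones. The call was lost with no replicate block (limma adjusted p = 0.15) and in either clone alone (0.50, limma adjusted p = 0.0645, and 0.32, limma adjusted p = 0.331). Late against start the change was 0.34 ± 0.20 (limma adjusted p = 0.39), and it turned on the time-0 arrays: without that of clone c6 it was 0.91 (limma adjusted p = 0.00742) and without that of clone c8 -0.22 (limma adjusted p = 0.685). NEFM lay between 293.5 and 399.3 in clone c6 and between 231.3 and 350.6 in clone c8. Its late change was -0.01 ± 0.15 (limma adjusted p = 0.989), and single clones gave -0.29 (c6) and 0.27 (c8). Its second probe set (223902_at) was at or below 11.3 on all arrays.

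**Figure D4:**
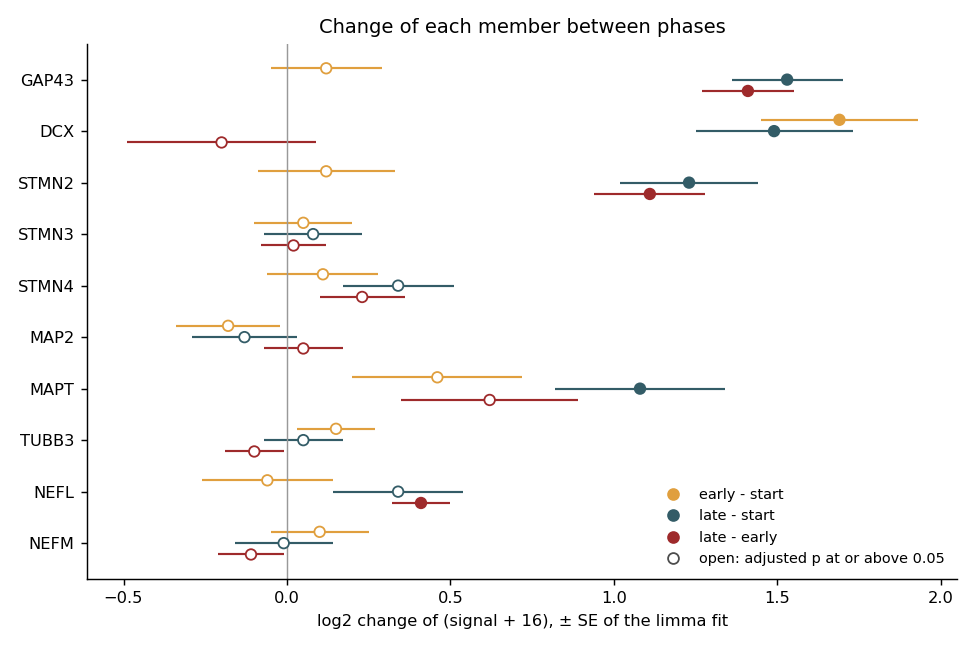
Log2 change of (signal + 16) of each of the 10 genes, ± SE of the limma fit, for early minus start, late minus start and late minus early. Filled points have an adjusted p under 0.05: DCX in both comparisons with the start, MAPT late against start, GAP43 and STMN2 in both late comparisons, and NEFL late against early.

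Counted by probe set with no intensity filter, 7 of the 26 were called late against start, all higher, where 2.13% of all probe sets were called. Shares over all probe sets include those below the filter, while 23 of the 26 lay above it. They were 1 of 3 for GAP43, 2 of 2 for DCX, 2 of 2 for STMN2 and 2 of 6 for MAPT. The brightest MAPT probe set missed the threshold over all probe sets (limma adjusted p = 0.0577). Late against early 6 were called, all higher, 2 each for GAP43, STMN2 and NEFL, against 1.62% of all probe sets. The count late against start was 3 without time 0 of clone c6 and 2 without that of clone c8.

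Among themselves the genes followed different courses, given as correlations over the 17 arrays after each clone's mean was removed; the arrays share 2 clones and neighbouring times. GAP43 ran with STMN2 (r = 0.94) and STMN4 (0.80). DCX ran with MAPT (0.77). The values of DCX were lower with GAP43 (0.30) and STMN2 (0.29). Those of MAPT were 0.69 with GAP43, 0.65 with STMN4 and 0.62 with STMN2, beside 0.66 for STMN2 and STMN4. The STMN4 values rest on a dim probe set (signal between 11.1 and 27.4), which correlated with the other STMN4 probe set at r = -0.24. NEFM ran with neither GAP43 (-0.03) nor DCX (0.25).

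By the same measure over 13675 genes, the 5 genes outside the list most like GAP43 were COL3A1, a fibrillar collagen (r = 0.956), SLC24A3 (0.953), FRAS1 (0.951), SPARC, a matrix glycoprotein (0.950), and DMD, which encodes dystrophin (0.949). Those most like DCX were COL4A4, a basement membrane collagen (0.966), WBP1L (0.960), LAPTM4A (0.957), TMEM178B (0.948) and RGS3, a regulator of G protein signalling (0.938). Those most like STMN2 were PDGFA, a growth factor (0.939), RRAS (0.933), SHOX2 (0.932), LINGO1 (0.924) and KCNJ8 (0.919). MAPT was followed most closely by SLC4A8, a bicarbonate transporter (0.980), SPOCK1 (0.946), SUMF1 (0.939), CMPK2 (0.938) and CAP2 (0.935). For NEFM the highest values were lower, 0.807 for INKA2-AS1 and 0.798 for COX7B, followed by FBLN1 (0.791), GTF3C2 (0.765) and MOSPD3 (0.757). For TUBB3, outside the naming rule, the closest were TUBB4B, another beta-tubulin (0.948), and PTTG1, a securin of cell division (0.936). TUBB3 and TUBB4B were both read by _x_at probe sets, which may also bind transcripts of related genes.

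Beside the rise of GAP43 and STMN2, markers of smooth muscle and pericytes rose. Of 10 tested, 8 were higher late against start and none lower. The summed signal of the 11 listed markers, NOTCH3 among them, was 317 and 503.7 at the start, between 345.3 and 1584 early and between 4672 and 15230 late. The sum over 9 sympathetic neuroblast markers was 7444 and 8151 at the start, between 5730 and 8211 early and between 5463 and 6433 late. Schwann and glial markers were near the floor: of 8 listed, 6 had a probe set, their sum was between 15.3 and 66.3 over all arrays, and S100B was between 0.3 and 3.1. The part of these markers in the courses of the 10 genes was not tested.

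The other genes of the neurite and its cytoskeleton were called in both directions. Of 68 listed in 7 groups, 63 were tested late against start and 11 called, beside 6.94% of all genes. Of these 4 were higher, beside 712 of all 13675 genes, and 7 lower, beside 237, with a median log2 change of 0.03 beside 0.02 over all genes. None of 10 other tubulin isotypes and none of 5 CRMP genes, which link guidance signals to microtubules, passed in limma (1 and 0 at an unadjusted p under 0.05). Early against start, 0 of the 63 were higher in limma (7 at an unadjusted p under 0.05) and 3 lower. The 3 were PLPPR4 (-1.02 ± 0.14, limma adjusted p = 0.00143), GPM6B (-0.83 ± 0.20, limma adjusted p = 0.0407) and KIF21A (-0.41 ± 0.10, limma adjusted p = 0.0377).

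Of 14 growth cone and neurite membrane genes, 4 fell late against start and none rose. PLPPR4, a phospholipid phosphatase-related membrane protein, fell by 0.90 ± 0.14 (limma adjusted p = 0.000596). GPM6B, a membrane proteolipid, fell by 0.89 ± 0.20 (limma adjusted p = 0.00985), and the contactins CNTN1 and CNTN2, adhesion molecules of axons, fell by 0.77 ± 0.18 (limma adjusted p = 0.0136) and 0.58 ± 0.16 (limma adjusted p = 0.037). GAP43, a gene of the same compartment, went the other way over the same arrays.

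Of 14 axonal motor and spectrin scaffold genes, 2 rose and 1 fell. The kinesin KIF21B rose by 1.79 ± 0.31 (limma adjusted p = 0.00167), from signals of 0.9 and 4 at time 0, and ANK2, an ankyrin that ties membrane proteins to spectrin, by 0.64 ± 0.12 (limma adjusted p = 0.0026). KIF21A fell by 0.37 ± 0.10 (limma adjusted p = 0.0286). Of 14 other microtubule-associated and stathmin genes, TPPP, a tubulin polymerisation protein, rose by 0.93 ± 0.19 (limma adjusted p = 0.00609) and STMN1 fell. Of 3 other intermediate filament genes, NES, which encodes nestin of neural progenitors, rose by 0.72 ± 0.11 (limma adjusted p = 0.00042). Of the 3 Hu genes, neuronal RNA-binding proteins, ELAVL2 fell by 0.62 ± 0.12 (limma adjusted p = 0.00393).

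On the brightest probe sets the clones differed in the level of 3 of the 10 genes over the 8 shared times, all lower in clone c8, in a comparison that called 21.7% of all genes (1562 higher and 1401 lower in clone c8). MAP2 was 2.1-fold lower in clone c8 (log2 -1.07 ± 0.10, limma adjusted p = 4.18e-06) and lower at 8 of 8 times, and its second probe set (210015_s_at) gave -0.79 (limma adjusted p = 0.000506). NEFM was lower by 0.34 ± 0.09 (limma adjusted p = 0.0151), at 7 of 8 times, with means of 362 ± 38.8 in clone c6 and 283 ± 40.7 in clone c8 (SD, n = 8 arrays each). TUBB3 was lower by 0.24 ± 0.07 (limma adjusted p = 0.0323), at 5 of 8 times. The second DCX probe set (204851_s_at) went the other way, higher in clone c8 by 0.45 (limma adjusted p = 0.017) and at 8 of 8 times, while the brighter one was at -0.03. The TUBB3 call was lost in 14 of 24 alternatives (limma adjusted p up to 0.0873), and that of NEFM with its probe sets averaged (-0.18, limma adjusted p = 0.12).

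**Figure D5:**
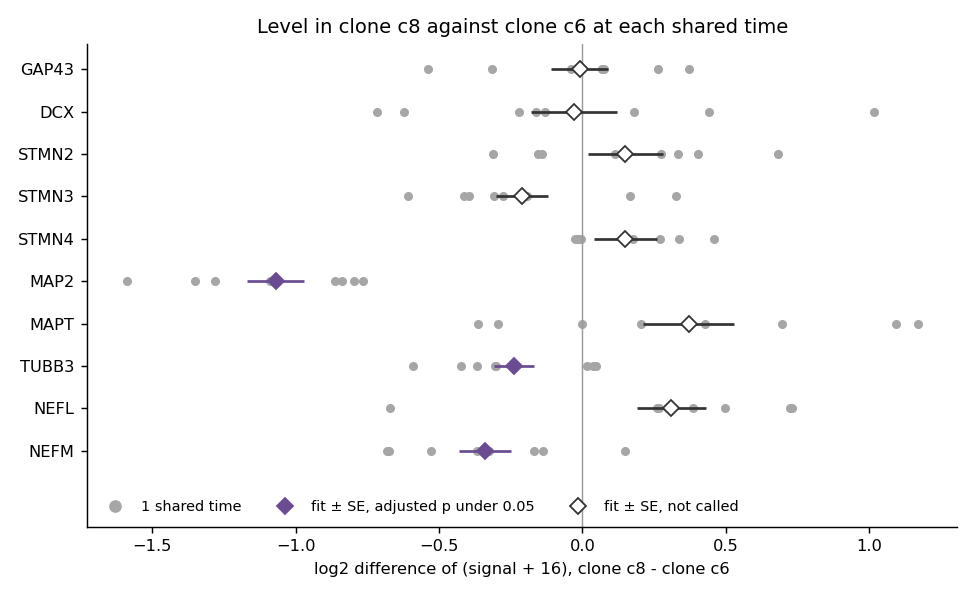
Log2 difference of (signal + 16) between clone c8 and clone c6 for the brightest probe set of each of the 10 genes. Grey points are the 8 shared times and diamonds the limma fit ± SE, filled where the adjusted p is under 0.05; all 8 points of MAP2 lie below 0, whereas those of DCX and MAPT spread to both sides.

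Of the 63 tested genes of the other neurite groups, 7 were higher and 20 lower in clone c8. Among the genes named above, GPM6B was lower by 1.15 (limma adjusted p = 1.58e-05), KIF21A by 0.47 (limma adjusted p = 7.61e-05) and CNTN1 by 0.48 (limma adjusted p = 0.00654), and STMN1 was higher by 0.36 (limma adjusted p = 0.00137). NOTCH3 was higher by 1.21 in clone c8 (limma adjusted p = 6.23e-06).

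Whether the clones differed in response was asked of the late minus early change. The times of a phase stood as replicates in that fit, so the climb of DCX and MAPT within the early phase counted as spread. None of the 10 genes passed in limma (2, MAPT and TUBB3, had an unadjusted p under 0.05) and 0% of all genes did, 0 of 13675; an unadjusted p under 0.05 was reached by 1193 genes. MAPT had a difference of -1.04 ± 0.48 (clone c8 minus clone c6, log2, limma adjusted p = 0.57), DCX of -0.88 ± 0.56 (limma adjusted p = 0.646) and TUBB3 of 0.38 ± 0.15 (limma adjusted p = 0.533). DCX was above 2-fold from time 8 in clone c6 and from time 4 in clone c8, MAPT from times 24 and 12. The shift of the peak from time 24 in clone c6 to time 12 in clone c8 was seen for MAPT and for the brighter DCX probe set and was not tested. The second DCX probe set peaked at time 12 in both clones.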

How the data were processed

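RNA of IMR32 clones was hybridised to 17 expression arrays. The authors deposited linear intensities per probe set, made with MAS5 and GCOS (no version given) per the submitters' processing notes. Every array had a 2% trimmed mean of 100.01 and had thus been scaled before deposit. Detection calls and scanner files were not analysed here. Precision is limited by the number of arrays.

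Intensities were taken as log2(value + 16), with no further normalization. The brightest probe set, by mean log2 value, stood for each gene, and genes at or above the 40th percentile (4.68 on that scale) were tested, 13675 in all. Probe sets with several symbols were left out of the gene tests. Tests by probe set took all 54675 with no intensity filter, with adjustment over all of them. Tests used limma 3.58.1 in R 4.3.3 (lmFit, eBayes with a trend), Benjamini-Hochberg adjustment over all genes tested and a threshold of 0.05. Comparisons with the start came from a fit of all 17 arrays with a term per time and for the clone (7 residual degrees of freedom), late against early from 12 arrays with the clone as a term (9), the clone response from its interaction with phase (8), and the clone level from 16 arrays with time as a term (7). In the late against early and clone response fits the times of a phase stood as replicates, so change within a phase counted as spread. The labels name the clone of every array, which pairs arrays of equal time; differences between the clones correlated across genes from 0.13 to 0.49 for every pair of shared times.

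All 10 genes were named, with up to 4 genes per further list of largest change past the threshold late against start, and the 5 closest genes by correlation for GAP43, DCX, STMN2, MAPT and NEFM. The genes and lists were chosen with earlier results of these data known. The tests were run on simulated data first. Alternatives were pseudocounts, normalization, filters, averaged probe sets, no trend, no clone term, phase means (a term per phase in place of each time), single clones, and leaving out 1 array at a time.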

Additional observations from a re-analysis of the deposited data

Results flagged for a closer look

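Late against start, the brightest probe sets of STMN3 and NEFM moved in opposite directions in the clones. The late minus start change in clone c8 exceeded that in clone c6 by 0.67 for STMN3 and by 0.56 for NEFM (log2), with all 3 late arrays below their own time 0 in clone c6 and all 3 above it in clone c8. Each value rests on 1 time-0 array per clone and on 1 probe set, and the difference was not tested. The second STMN3 probe set (218207_s_at) changed by -0.27 in clone c6 and 0.15 in clone c8, where its late arrays lay on both sides of time 0. The second NEFM probe set (223902_at), near the floor, changed by -0.63 in clone c6 and -0.10 in clone c8. In the late minus early change, which does not use time 0, the clone difference was 0.35 ± 0.18 for STMN3 (limma adjusted p = 0.603) and 0.34 ± 0.19 for NEFM (limma adjusted p = 0.624).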

How the results depend on the processing

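GAP43 was called late against start in every alternative that used both clones. Late against early GAP43 and STMN2 were called in 23 of 23 and 22 of 22 alternatives, and MAP2 for clone level in 24 of 24. With no replicate block (no clone term) 3 of the 10 genes were called late against start, 1 early, 3 over all times, 2 late against early, 3 at times 12 and 24 against start and 1 late against times 12 and 24; by probe set 6 late against start and 5 late against early. A fit of 1 clone has a single start array and takes the times of a phase as replicates, so its counts against the start are not given. Late against early it called 1 probe set in clone c6 and 1 in clone c8. Early against start 0 were called with phase means over both clones. Averaged probe sets left 1 gene for clone level; no filter and no trend left 1 each late against times 12 and 24. With 1 array left out the counts ran from 0 to 1 (early), from 1 to 4 (times 12 and 24 against start), from 0 to 2 (late against times 12 and 24) and from 2 to 8 (probe sets, late against start).

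Of the genes not called late against start, STMN3 turned to -0.26 in clone c6 alone (from -0.15 to 0.30 with 1 array left out), MAP2 to 0.09 in clone c8 alone (from -0.29 to 0.03), TUBB3 to -0.02 with median centring and -0.06 in clone c6 alone (from 0.00 to 0.11), NEFL to -0.15 in clone c6 alone (from -0.22 to 0.91), and NEFM to 0.01 with quantile normalization and 0.27 in clone c8 alone (from -0.20 to 0.18). The cause was not tested. With both clones in the fit, the count over all genes ran from 373 to 1091 late against start and from 24 to 425 early. The signals of STMN2, STMN4 and the dimmer probe sets, some below the added 16, limit what their folds show.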
